A study of Mus musculus with 6 samples.

Results

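The genes described here are 37 components of transforming growth factor beta (TGF-beta), bone morphogenetic protein (BMP) and activin signalling, of 25006 genes counted in the series. They were chosen by name as 8 ligand and subunit genes, 6 receptors, 8 SMADs, 7 target and co-repressor genes, 3 latency proteins and 5 antagonists, and all 37 matched an Ensembl identifier. RNA was sequenced from mouse ovarian surface epithelial (MOSE) cells, which derive from the single cell layer that covers the ovary. The libraries were 3 of MOSE-PAX8, a stable line that overexpresses the paired-box transcription factor PAX8, and 3 of MOSE-NEO, its counterpart. Cells of both lines were held under G418 at 0.05 mg/mL, and the labels describe no treatment. One line stands for each group, and neither its derivation (clonal or pooled) nor the promoter driving PAX8 was stated in what was available. Whatever separates these particular lines therefore cannot be told apart from PAX8 itself.

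Ligands of this family bind pairs of type I and type II receptor kinases, and these phosphorylate receptor SMADs that enter the nucleus with SMAD4. SMAD2 and SMAD3 serve TGF-beta and activin, whereas SMAD1, SMAD5 and SMAD9 serve the BMPs, and SMAD6 and SMAD7 inhibit the receptors. TGF-beta is secreted in a latent complex that latent TGF-beta binding proteins tether to the matrix, and follistatin, gremlin and noggin trap activins or BMPs outside the cell. In the ovary, activins, inhibins and BMPs regulate follicle growth, and TGF-beta acts on proliferation and shape of the surface epithelium.

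Library totals lay between 23623762 and 36367825 counts. Pax8 had 2570, 2973 and 3544 counts in the MOSE-PAX8 libraries, against 0, 1 and 1 in MOSE-NEO, and these gene-level counts do not separate introduced from endogenous transcripts. Of 10 markers of ovarian surface and mesothelium, all were detected in both lines, with a summed level of 7192 to 8379 CPM (counts relative to the library total, scaled with TMM factors) in MOSE-PAX8 and 12499 to 13838 CPM in MOSE-NEO. Of these, 6 were called lower in MOSE-PAX8 at an edgeR adjusted p below 0.05 (Krt7, Krt8, Wt1, Upk3b, Podxl and Lrrn4) and 1, Nr2f2, higher. Over all tested genes 16.1% were called lower and 17.9% higher. Krt8 and Krt19 were near 0 in both lines, at no more than 1.08 CPM. The 6 markers of granulosa and theca cells summed to 1.78 to 2.62 CPM in MOSE-PAX8 and 0.159 to 0.217 CPM in MOSE-NEO. Foxl2 made up most of that sum in MOSE-PAX8 and Amh in MOSE-NEO, with Fshr and Cyp19a1 at 0 counts in every library. Foxl2 was called higher (edgeR adjusted p = 0.000117). The 5 stromal fibroblast markers summed to 3285 to 3499 CPM in MOSE-PAX8 and 3796 to 4408 CPM in MOSE-NEO. Nearly all of that was Col1a1 and Dcn, and neither was called. The other 3, Pdgfra, Pdgfrb and Lum, summed to 0.247 to 0.410 CPM in MOSE-PAX8 and 0.348 to 0.604 CPM in MOSE-NEO. The 4 endothelial markers summed to 0.126 to 0.493 CPM in MOSE-PAX8 and 0.348 to 0.996 CPM in MOSE-NEO, and none was tested. Among them Pecam1 had 9 counts in MOSE-PAX8 and 43 in MOSE-NEO, and Tek 23 and 9. The 5 leukocyte markers summed to 4.73 to 6.41 CPM and 1.91 to 3.27 CPM in those lines. Cd68 made up most of that sum in every library and was not called (edgeR adjusted p = 0.155). Ptprc, the pan-leukocyte marker, had 60, 49 and 87 counts in MOSE-PAX8 against 0, 0 and 1 in MOSE-NEO and was called higher (edgeR adjusted p = 0.000103), while Adgre1 was at 0 in all 6 libraries. Several members, Inha, Inhbb and Fst among them, are also expressed by granulosa cells, and the part of these marker differences in the results was not tested. In bulk RNA, fewer cells of a type and less RNA per cell cannot be told apart.

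The sequences shown here belong to Ltbp1 and Tgfb2, the tested member and the tested ligand gene with the largest rise, and to a pair of ID genes that moved in opposite directions, Id4 and Id3. Each is the 250 bases before the RefSeq start on GRCm38.p6, read 5′ to 3′ on the strand of the gene. Capitals mark CAGAC, the short SMAD-binding sequence, on either strand (GTCTG on the other), and GGCGCC, a palindromic GC-rich sequence bound by BMP-type SMADs. These motifs do not overlap in the windows shown.
Tgfb2, chr1:186705990-186706239, minus strand: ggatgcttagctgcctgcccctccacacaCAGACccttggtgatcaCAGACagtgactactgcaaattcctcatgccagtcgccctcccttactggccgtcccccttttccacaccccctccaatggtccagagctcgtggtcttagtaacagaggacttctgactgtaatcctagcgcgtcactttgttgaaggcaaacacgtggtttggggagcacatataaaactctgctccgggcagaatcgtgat
Ltbp1, chr17:75005279-75005528, plus strand: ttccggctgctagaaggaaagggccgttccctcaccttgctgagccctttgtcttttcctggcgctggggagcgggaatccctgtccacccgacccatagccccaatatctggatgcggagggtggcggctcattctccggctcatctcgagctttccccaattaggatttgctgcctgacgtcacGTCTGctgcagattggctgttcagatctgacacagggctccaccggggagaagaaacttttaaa
Id4, chr13:48260866-48261115, plus strand: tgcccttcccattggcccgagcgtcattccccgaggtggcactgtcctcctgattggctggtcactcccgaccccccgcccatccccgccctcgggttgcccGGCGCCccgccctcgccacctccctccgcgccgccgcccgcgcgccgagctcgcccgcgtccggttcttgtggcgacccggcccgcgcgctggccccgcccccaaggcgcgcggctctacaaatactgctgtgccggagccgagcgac
Id3, chr4:136143572-136143821, plus strand: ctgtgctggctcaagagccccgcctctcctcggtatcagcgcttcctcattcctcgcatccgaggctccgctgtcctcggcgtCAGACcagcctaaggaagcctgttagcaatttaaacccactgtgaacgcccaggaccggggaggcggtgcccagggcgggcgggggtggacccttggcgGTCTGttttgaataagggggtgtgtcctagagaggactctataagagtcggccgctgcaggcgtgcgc
The Tgfb2 and Id3 windows each held 2 copies of CAGAC and the Ltbp1 window shown 1, while the Id4 window held none and had 1 copy of GGCGCC. Ltbp1 has 2 listed windows, of which the one farthest upstream is shown, and the other held 2 copies of CAGAC. The Id3 window precedes the RefSeq start but lies inside the GENCODE M21 gene, whose annotated start is farther upstream. Of the 37 members 24 had a listed upstream window, 28 windows in all. CAGAC was in 14 of the 28, against 42.2% of all 32851 listed windows, and GGCGCC in 8 of the 28, against 9.59%. The longer palindrome GTCTAGAC was in none of the 28, against 0.167%. The listed windows were not matched to those of the members for GC content, and no share was tested as an enrichment. For 21 of the 28 windows the first 30 bases after the start lay in an annotated transcript of the gene. These matches describe letters in a short window and identify no bound site.

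Of the 37 members 30 passed the filter on low counts and were tested, and 16 were called at an edgeR adjusted p below 0.05, 8 higher and 8 lower in MOSE-PAX8. Over all 12313 tested genes 33.9% were called, 17.9% higher and 16.1% lower. Libraries of the lines did not overlap in 21 of the 30 members, against 47.6% of all tested genes. The median absolute log2 fold change was 0.28 over the 30 members and 0.24 over all tested genes, and the signed medians were 0.02 and 0.01. Most differences were thus small, and the larger ones among the tested members were rises: Ltbp1, Ltbp2, Tgfb2, Fst, Inhba and Id4. Leaving out MOSE-PAX8 replicate 1, MOSE-PAX8 replicate 3 or MOSE-NEO replicate 2 lowered the count of members that fell to 5, 3 and 4. It was 5 when the median log2 fold change of neighbouring genes (within 10 Mb on either side) was removed, an adjustment used because stretches of several chromosomes differed between the lines.

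**Figure D1:**
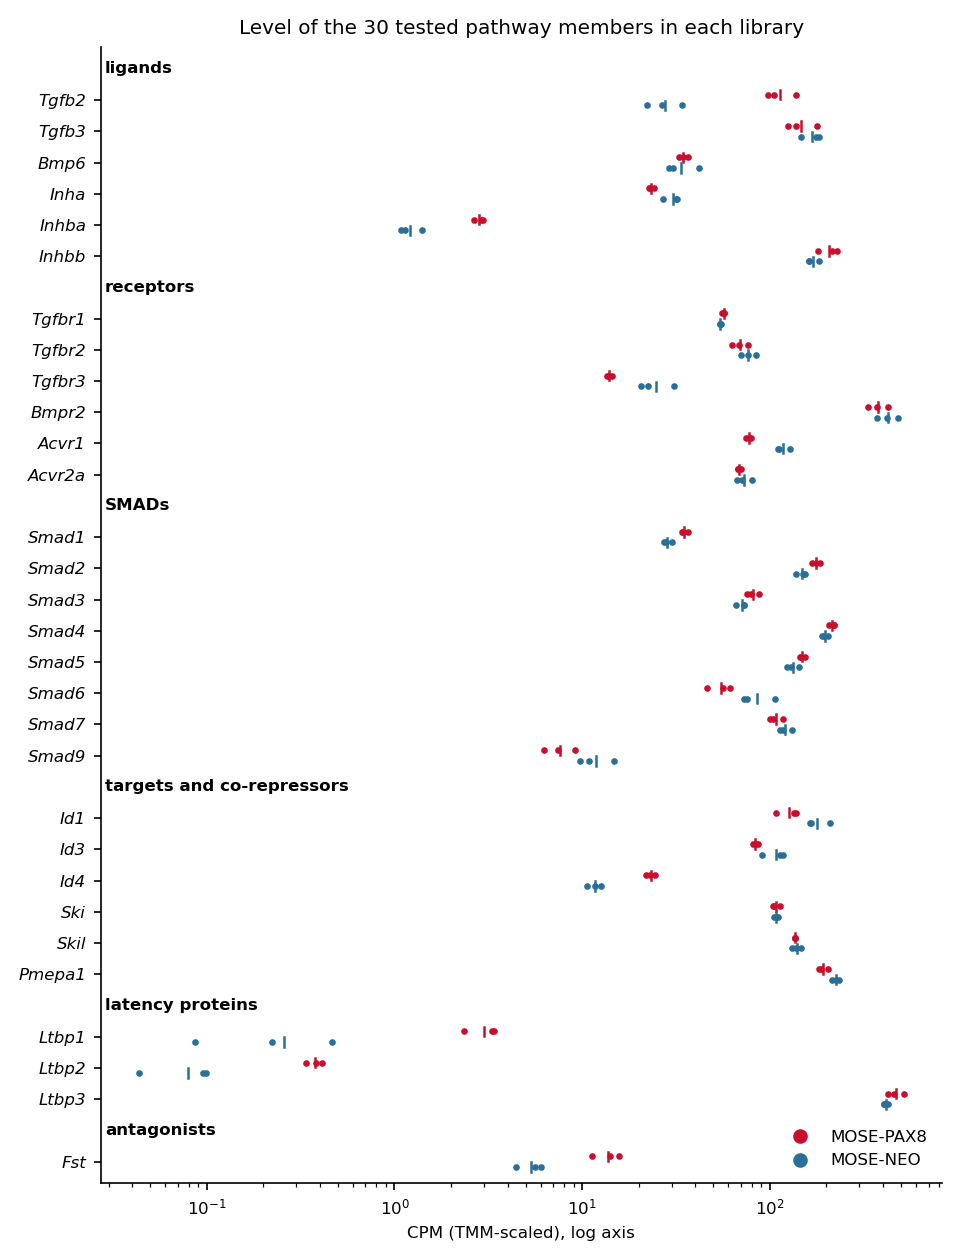
TMM-scaled CPM on a log axis for the 30 tested members, grouped by role, with 1 point per library and a short line at the mean of each line's 3 libraries (MOSE-PAX8 above MOSE-NEO in each row). Tgfb2, Inhba, Id4, Ltbp1, Ltbp2 and Fst sit wholly to the right in MOSE-PAX8, while Tgfbr1, Ski and Skil lie at nearly the same level in both lines.

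**Figure D2:**
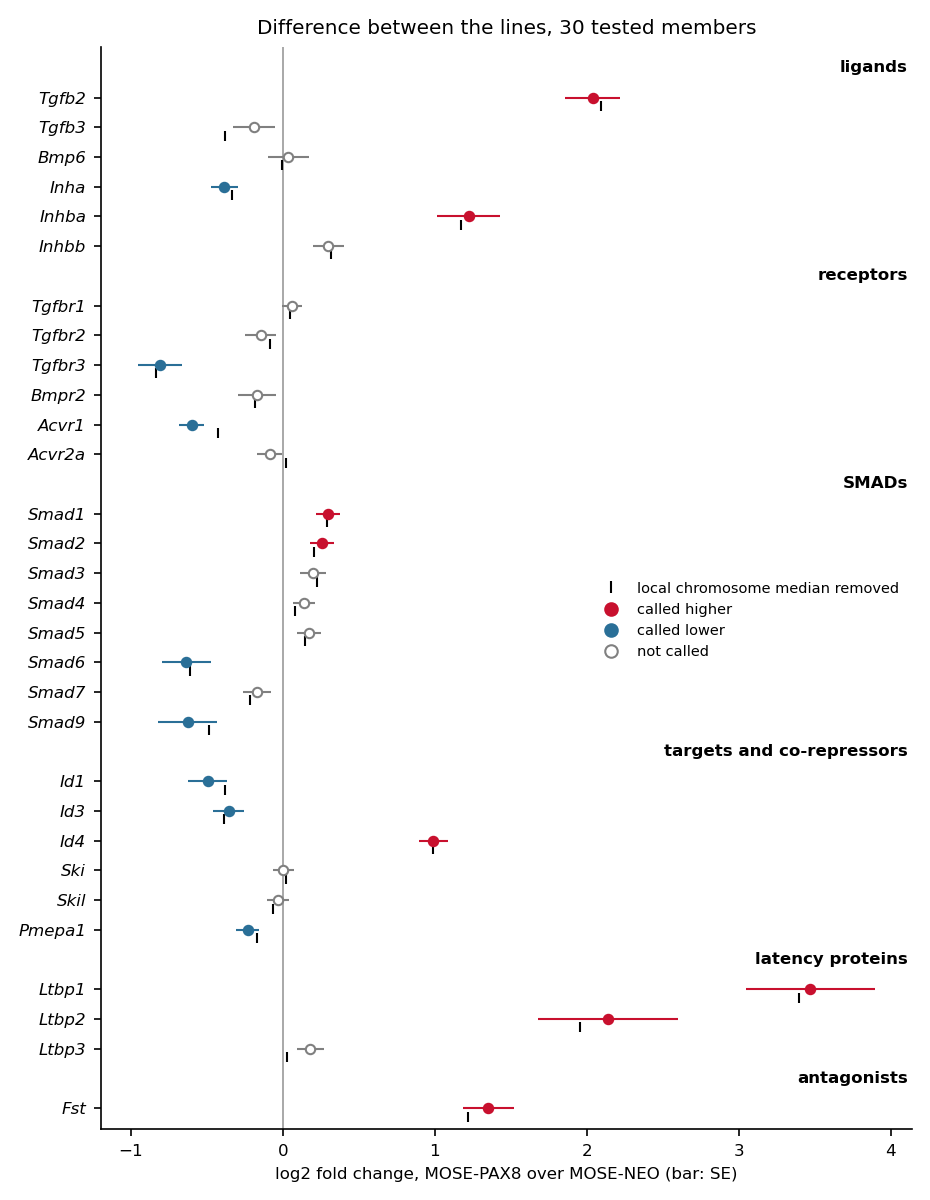
Log2 fold change of MOSE-PAX8 over MOSE-NEO with its SE for the 30 tested members by role, filled where called, with a tick for the value after the local chromosome median was removed. Called members number 8 on each side of 0, and the rises reach 3.47 (Ltbp1) while the falls reach -0.81 (Tgfbr3).

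Among the ligands, Tgfb2 rose while Tgfb3, the more abundant TGF-beta gene, did not change detectably. Tgfb2 (chromosome 1, 186622792 to 186705989, mm10) encodes the TGF-beta isoform that depends most on the co-receptor betaglycan. It had 97.2, 105 and 138 CPM in MOSE-PAX8, against 26.5, 22.1 and 34.1 CPM in MOSE-NEO. The lowest MOSE-PAX8 library lay well above the highest MOSE-NEO library. The rise was 4.11-fold (log2 fold change 2.04 ± 0.18 SE, edgeR adjusted p = 8.18e-05), and its log2 fold change stayed between 1.87 and 2.22 over 15 alternative analyses.

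Tgfb3 (chromosome 12, 86056745 to 86079041) had 177, 138 and 125 CPM in MOSE-PAX8 and 175, 182 and 146 CPM in MOSE-NEO. The libraries of the lines overlapped (log2 fold change -0.19 ± 0.14 SE, adjusted p = 0.336). Set beside the third TGF-beta gene, Tgfb1, per kilobase of exon, Tgfb2 made up 22.4%, 28.4% and 36.1% of the summed TGF-beta ligand level in the MOSE-PAX8 libraries. Its share in the MOSE-NEO libraries was 7.63%, 6.15% and 10.9%. Tgfb3 remained the largest part, 63.3 ± 7.22% in MOSE-PAX8 and 84.2 ± 3.91% in MOSE-NEO (SD, n = 3 each). The summed level was 68.3 ± 5.84 CPM per kilobase in MOSE-PAX8 and 58.7 ± 4.15 CPM per kilobase in MOSE-NEO.

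The inhibin and activin subunits moved apart. Inhba encodes the beta A subunit of activin A, and it had 2.90, 2.64 and 2.96 CPM in MOSE-PAX8, against 1.14, 1.09 and 1.39 CPM in MOSE-NEO. It rose 2.33-fold without overlap between the lines (log2 fold change 1.22 ± 0.21 SE, adjusted p = 0.00237). Inha encodes the alpha subunit, which pairs with a beta subunit to form inhibin. It had 22.7, 24.1 and 22.8 CPM in MOSE-PAX8 against 32.2, 27.1 and 31.6 CPM in MOSE-NEO. All MOSE-PAX8 libraries were below all MOSE-NEO libraries, a 1.31-fold fall (adjusted p = 0.0114). Inhbb, the beta B subunit, had 227, 181 and 215 CPM in MOSE-PAX8 and 162, 162 and 183 CPM in MOSE-NEO. Its lowest MOSE-PAX8 library lay just below the highest MOSE-NEO library, and it did not pass (log2 fold change 0.30 ± 0.10 SE, adjusted p = 0.0524).

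Inhbb lay close to the threshold and passed in 6 alternatives. These were DESeq2 (adjusted p = 0.04997), upper-quartile factors (0.0407), the replicate number as a block (0.0461), and omission of MOSE-PAX8 replicate 2 (0.0129), of MOSE-NEO replicate 3 (0.0393), or of MOSE-PAX8 replicate 2 together with MOSE-NEO replicate 1, the libraries richest in lincRNA (0.0377). Per kilobase of exon Inhbb was the most abundant subunit in both lines, 48.8 CPM per kilobase in MOSE-PAX8 and 39.7 in MOSE-NEO, and Inhba the least, 0.443 and 0.189. The share of Inha in the summed subunits was 24.4 ± 2.82% in MOSE-PAX8 and 34.0 ± 2.07% in MOSE-NEO (SD, n = 3 each), with no overlap between libraries. Inhba had under 1% of the sum in every library, with 0.683% in MOSE-PAX8 and 0.312% in MOSE-NEO on average.

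The BMP ligands among the members showed no called difference. Bmp6 had 34.3, 32.8 and 36.6 CPM in MOSE-PAX8 and 30.5, 41.7 and 29.0 CPM in MOSE-NEO. The MOSE-PAX8 values lay inside the MOSE-NEO range (adjusted p = 0.865). The gene shares exon sequence on the opposite strand with Txndc5, and the strand setting of the counting is not given. Bmp2 had 1 count in MOSE-PAX8 and 0 in MOSE-NEO, and Bmp7 had 1 count in each line. At most 3 counts per library corresponds to 0.0825 to 0.127 CPM of the library total, so neither was detectable above that limit, which covers counting error only.

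**Figure D3:**
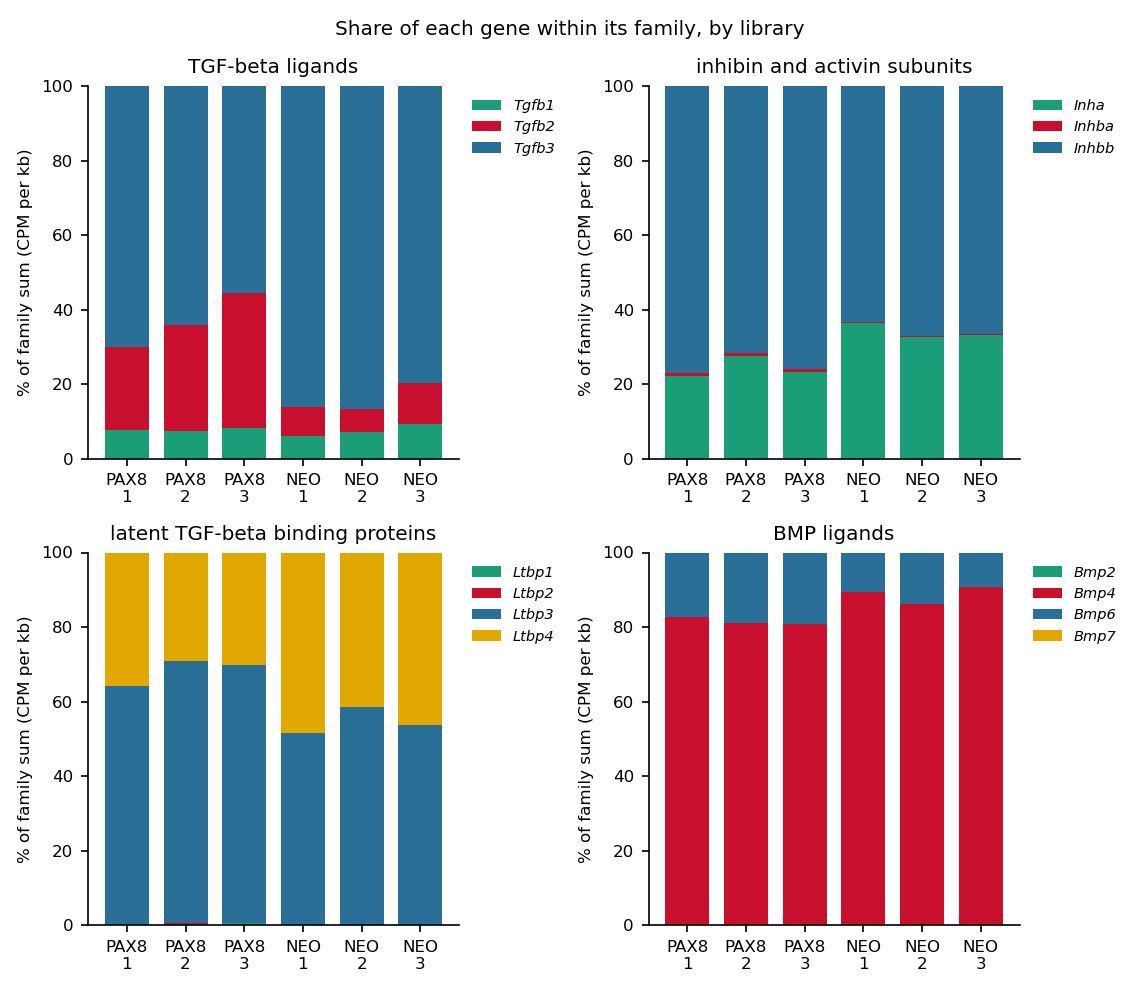
Stacked shares, in percent, of the summed CPM per kilobase of exon within the TGF-beta ligands, the inhibin and activin subunits, the latent TGF-beta binding proteins and a group of BMP ligands, with 1 bar per library and MOSE-PAX8 left of MOSE-NEO. Tgfb2 takes 22.4% to 36.1% of the TGF-beta ligands in MOSE-PAX8 and 6.15% to 10.9% in MOSE-NEO, and genes with shares under 1% (Inhba, Ltbp1, Ltbp2, Bmp2, Bmp7) are barely visible.

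Of the 6 receptor members, the kinases that bind TGF-beta did not change detectably, and a co-receptor and a type I receptor fell. Tgfbr3 encodes betaglycan, which presents TGF-beta and inhibin to the signalling receptors, and lies on chromosome 5 at 107106570 to 107289629. It had 13.6, 14.4 and 13.9 CPM in MOSE-PAX8, against 22.5, 30.6 and 20.6 CPM in MOSE-NEO. The MOSE-PAX8 libraries were close together and all lower, a 1.76-fold difference (log2 fold change -0.81 ± 0.14 SE, adjusted p = 0.00297). Acvr1 encodes a type I receptor for BMPs and activins and lies on chromosome 2 at 58388644 to 58567157. It had 79.4, 77.6 and 74.1 CPM in MOSE-PAX8 and 110.2, 128 and 112 CPM in MOSE-NEO. The lines did not overlap, and the fall was 1.51-fold (log2 fold change -0.60 ± 0.08 SE, adjusted p = 0.000824). Genes around Acvr1 had a median log2 fold change of -0.17, and with that median removed Acvr1 kept its call (log2 fold change -0.43, adjusted p = 0.00538).

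The other receptor members were not called, with adjusted p between 0.301 and 0.534. Tgfbr1, the type I kinase for TGF-beta, had 56.6 ± 0.748 CPM in MOSE-PAX8 and 54.4 ± 0.536 CPM in MOSE-NEO (SD, n = 3 each). Its 3 MOSE-PAX8 values lay just above the MOSE-NEO values, a log2 fold change of 0.06 ± 0.06 SE. Tgfbr2, the type II kinase for TGF-beta, had 69.3 ± 7.15 CPM in MOSE-PAX8 and 76.7 ± 6.94 CPM in MOSE-NEO. Bmpr2, the type II receptor for BMPs, was the receptor with the most counts, 377 ± 46.5 CPM in MOSE-PAX8 and 424 ± 56.8 CPM in MOSE-NEO. Per kilobase of exon it had 21.0 CPM per kilobase in MOSE-PAX8 and 23.6 in MOSE-NEO, against 16.0 and 24.2 for Acvr1. Acvr2a, a type II receptor for activins, had 68.4 ± 1.57 CPM and 72.7 ± 6.79 CPM in those lines, and shares exon sequence on the opposite strand with Orc4. Values of the lines overlapped for Tgfbr2, Bmpr2 and Acvr2a.

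Of the 8 SMAD genes 2 rose, 2 fell and 4 did not pass, where 33.9% of all tested genes were called, and no SMAD differed by more than 0.64 on the log2 scale. Smad1, Smad2, Smad3, Smad4 and Smad5 had log2 fold changes between 0.14 and 0.30, and the 3 MOSE-PAX8 libraries lay above the 3 MOSE-NEO libraries for each, a separation in either direction that 47.6% of all tested genes had. Smad1, a BMP-type SMAD, passed with 34.4, 33.9 and 36.6 CPM in MOSE-PAX8 against 27.3, 27.9 and 30.1 CPM in MOSE-NEO (1.23-fold, adjusted p = 0.0191). Smad2, a TGF-beta and activin SMAD, passed with 185, 167 and 176 CPM in MOSE-PAX8 against 153, 138 and 151 CPM in MOSE-NEO (1.19-fold, adjusted p = 0.0337). Smad3 (80.9 CPM in MOSE-PAX8 and 70.6 CPM in MOSE-NEO on average), Smad4 (215 and 195 CPM) and Smad5 (148 and 132 CPM) did not pass, with adjusted p of 0.103, 0.171 and 0.138. Smad4, the shared partner, had the highest SMAD level per kilobase in both lines, 58.0 CPM per kilobase in MOSE-PAX8 and 52.6 in MOSE-NEO.

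Inhibitory Smad6 and BMP-type Smad9 fell. Smad6 (chromosome 9, 63953076 to 64022059) is itself induced by BMP signalling and blocks it. It had 56.4, 61.5 and 46.3 CPM in MOSE-PAX8, against 72.8, 107 and 75.6 CPM in MOSE-NEO. The lines did not overlap, and MOSE-NEO replicate 2 stood highest (1.55-fold lower in MOSE-PAX8, log2 fold change -0.64 ± 0.16 SE, adjusted p = 0.0160). Smad9 had 7.41, 9.18 and 6.29 CPM in MOSE-PAX8 against 10.8, 14.8 and 9.73 CPM in MOSE-NEO, with the same MOSE-NEO library highest (1.54-fold lower, adjusted p = 0.0367). Smad7, which inhibits TGF-beta receptors and is a TGF-beta target, had 101, 117 and 104 CPM in MOSE-PAX8 and 118, 132 and 113 CPM in MOSE-NEO. Its values overlapped and it did not pass (log2 fold change -0.17 ± 0.09 SE, adjusted p = 0.183). Smad9 made up 5.25 ± 0.878% of the summed BMP-type SMADs per kilobase in MOSE-PAX8 and 8.96 ± 1.98% in MOSE-NEO (SD, n = 3 each), so Smad5 and Smad1 made up nearly all of that level in both lines.

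These SMAD calls depended on single libraries, and those of Smad1, Smad2 and Smad9 on other settings too. Smad1 lost its call without MOSE-PAX8 replicate 3 (adjusted p = 0.0889), MOSE-NEO replicate 1 (0.0592) or MOSE-NEO replicate 2 (0.0702). It also lost it without both lincRNA-rich libraries (0.0653), and Smad2 lost its call with no filter on low counts (0.0550). Smad2 further lost it without MOSE-PAX8 replicate 1 (0.125) or 3 (0.106), or MOSE-NEO replicate 2 (0.122) or 3 (0.0586). The same held with the local chromosome median, 0.05, removed (log2 fold change 0.21 instead of 0.26, adjusted p = 0.0826). Smad6 lost it without MOSE-PAX8 replicate 3 (0.0598). Smad9 lost it without MOSE-PAX8 replicate 1 (0.0925) or 3 (0.124), or MOSE-NEO replicate 1 (0.0553) or 2 (0.120), and with the local median, -0.14, removed (log2 fold change -0.49 instead of -0.63, adjusted p = 0.0999). None of the 4 changed sign in the 15 alternatives.

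Among the target genes, the ID genes split. ID proteins are helix-loop-helix proteins that lack a DNA-binding region and hold bHLH factors inactive, and Id1, Id2 and Id3 are standard BMP targets. Id4 (chromosome 13, 48261228 to 48266026) had 24.4, 23.1 and 21.9 CPM in MOSE-PAX8, against 12.5, 11.7 and 10.7 CPM in MOSE-NEO. Values within each line were close together, and the rise was 1.99-fold (log2 fold change 0.99 ± 0.10 SE, adjusted p = 0.000134). An antisense gene that overlaps Id4, A330033J07Rik, had 12 counts in MOSE-PAX8 and 4 in MOSE-NEO over 3 libraries each, against 2337 and 986 for Id4.

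Id1 (chromosome 2, 152736251 to 152737410) had 138, 135 and 108 CPM in MOSE-PAX8, against 163, 208 and 166 CPM in MOSE-NEO. Id3 (chromosome 4, 136143497 to 136145755) had 84.2, 86.1 and 81.1 CPM in MOSE-PAX8, against 91.3, 118 and 113 CPM in MOSE-NEO. Both were lower in every MOSE-PAX8 library, Id1 1.41-fold (adjusted p = 0.0169) and Id3 1.28-fold (adjusted p = 0.0253). Id1 and Id3 still made up most of the ID level per kilobase, 67.3% and 29.0% in MOSE-PAX8 and 70.9% and 27.6% in MOSE-NEO. Id4 made up 3.71 ± 0.214% in MOSE-PAX8 and 1.41 ± 0.236% in MOSE-NEO (SD, n = 3 each). Id1 was the member with the highest level per kilobase in both lines, 109 CPM per kilobase in MOSE-PAX8 and 154 in MOSE-NEO. Id2 was almost silent, with 18 counts in MOSE-PAX8 and 23 in MOSE-NEO, and was not tested (count ratio 0.657, exact 95% counting interval 0.334 to 1.27).

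The co-repressors did not change detectably. Ski had 108 ± 4.97 CPM in MOSE-PAX8 and 108 ± 2.78 CPM in MOSE-NEO, and Skil, which TGF-beta induces, had 136 ± 0.122 CPM and 139 ± 7.42 CPM (SD, n = 3 each). Their log2 fold changes were within 0.03 of 0 (adjusted p = 0.979 and 0.776), and both changed sign between alternatives. Pmepa1, a TGF-beta-induced membrane protein that binds receptor SMADs, had 204, 188 and 182 CPM in MOSE-PAX8 and 215, 234 and 226 CPM in MOSE-NEO. It was 1.18-fold lower, at the edge of the threshold (adjusted p = 0.0489).

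The 3 smaller falls in this group also rested on single libraries. Id1 lost its call without MOSE-PAX8 replicate 3 (adjusted p = 0.0637) or MOSE-NEO replicate 2 (0.0559), and after the median of its neighbours, -0.12, was removed (log2 fold change -0.38 instead of -0.50, adjusted p = 0.0585). Id3 lost it without MOSE-PAX8 replicate 1 (0.0678) or 3 (0.0951), or MOSE-NEO replicate 2 (0.0897) or 3 (0.0723). Pmepa1 lost it in 10 of 15 alternatives, among them without MOSE-PAX8 replicate 1 (0.0545), 2 (0.108) or 3 (0.201), MOSE-NEO replicate 2 (0.128) or 3 (0.112), and with the replicate number as a block (0.0816).

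Of the latency proteins Ltbp1 and Ltbp2 rose, from low levels, and Ltbp1 had the largest fold change among the tested members. Latent TGF-beta binding proteins are large matrix glycoproteins related to fibrillin. Ltbp1 (chromosome 17, 75005568 to 75392512) had 86, 105 and 110 counts in MOSE-PAX8, or 2.35, 3.30 and 3.39 CPM, against 7, 2 and 14 counts in MOSE-NEO, or 0.222, 0.0869 and 0.465 CPM. It rose 11.1-fold with no overlap (log2 fold change 3.47 ± 0.43 SE, adjusted p = 0.000457), and the log2 fold change was 4.17 without MOSE-NEO replicate 3. Ltbp2, which binds elastic fibres and not latent TGF-beta, had 14, 13 and 11 counts in MOSE-PAX8 against 3, 1 and 3 in MOSE-NEO. It was called 4.41-fold higher (log2 fold change 2.14 ± 0.46 SE, adjusted p = 0.00743), but DESeq2 did not call it (adjusted p = 0.0556). With so few counts the ratio had an exact 95% counting interval of 2.01 to 12.1.

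Ltbp3 was the abundant member, with 460.2, 516 and 428 CPM in MOSE-PAX8 and 405, 427 and 407 CPM in MOSE-NEO. Its MOSE-PAX8 values lay just above those of MOSE-NEO, but the difference did not pass (log2 fold change 0.18 ± 0.09 SE, adjusted p = 0.161), and the gene shares exon sequence with another gene on the opposite strand. Ltbp4, which is not one of the 37, was 1.57-fold lower (adjusted p = 0.00560). Per kilobase, Ltbp3 was 67.8 ± 3.51% of the summed Ltbp level in MOSE-PAX8 and 54.5 ± 3.52% in MOSE-NEO, and Ltbp4 31.7 ± 3.59% and 45.4 ± 3.50% (SD, n = 3 each). Ltbp1 reached 0.375% of that sum in MOSE-PAX8 and 0.0287% in MOSE-NEO, so its large fold change was a small part of the family's transcripts.

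Of the 5 antagonists only follistatin (Fst) had enough counts for the test. Fst binds activins nearly irreversibly, and lies on chromosome 13 at 114452290 to 114458951. It had 11.2, 14.1 and 15.6 CPM in MOSE-PAX8, against 4.42, 6.04 and 5.61 CPM in MOSE-NEO. It rose 2.55-fold with no overlap (log2 fold change 1.35 ± 0.17 SE, adjusted p = 0.000509), and was called in all 15 alternatives. Follistatin and the activin subunit gene Inhba were thus both higher in MOSE-PAX8. Inhbb, the far more abundant activin subunit gene, was not called (adjusted p = 0.0524).

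The remaining antagonists were near the detection limit in both lines and were not tested. Grem1, a BMP antagonist, had 4, 1 and 13 counts in MOSE-PAX8 and 1, 0 and 0 in MOSE-NEO (count ratio 15.1, exact 95% counting interval 2.38 to 629). Fstl3, a follistatin relative, had 6, 6 and 3 counts in MOSE-PAX8 and 1, 1 and 0 in MOSE-NEO (ratio 6.29, interval 1.46 to 56.7). Bambi, a decoy receptor, had 3 counts in each MOSE-PAX8 library and 1 in each MOSE-NEO library (ratio 2.52, interval 0.628 to 14.5). Nog, which encodes the BMP antagonist noggin, had 9 counts in MOSE-PAX8 and 6 in MOSE-NEO (ratio 1.26, interval 0.400 to 4.30). Counts of these 4 genes were above 0 in MOSE-PAX8 but too low to rank them, and the intervals cover counting error only.

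**Figure D4:**
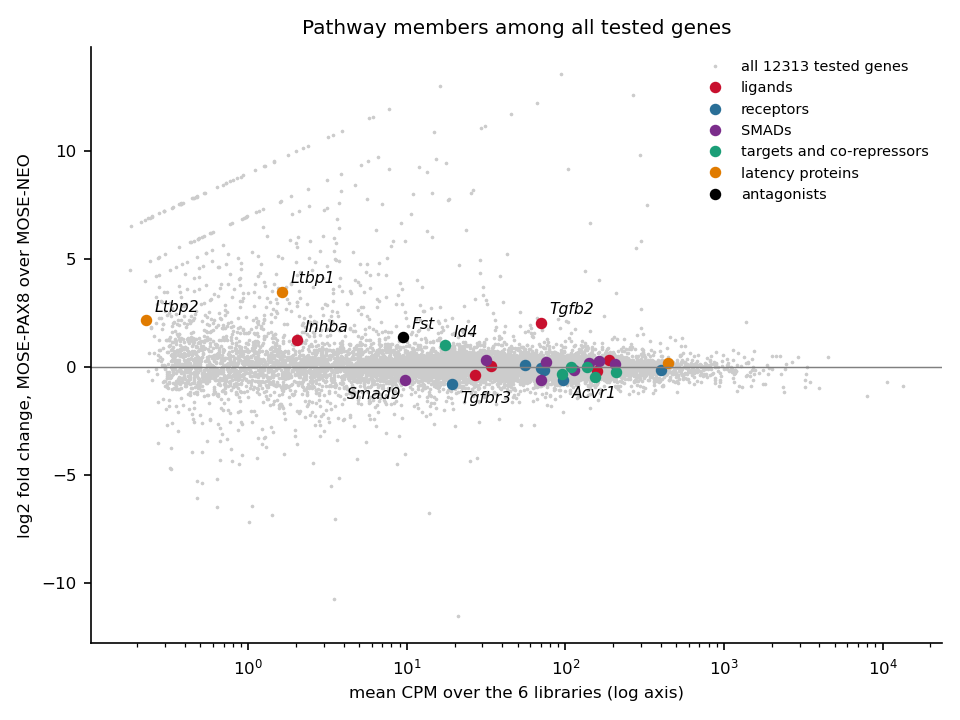
Log2 fold change of MOSE-PAX8 over MOSE-NEO against mean CPM over the 6 libraries (log axis) for all 12313 tested genes in grey and the 30 tested members coloured by role. Most members lie near 0 within the grey cloud, and Ltbp1, Ltbp2, Tgfb2, Inhba, Fst and Id4 stand above the other members.

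Other genes of the pathway, 60 chosen by function, gave a similar picture of mixed direction. Of these 41 were tested, and 9 rose and 9 fell, 22% each, against 17.9% and 16.1% of all tested genes. Libraries of the lines did not overlap in 48.8% of the 41, near the 47.6% of all tested genes. Repulsive guidance molecule A (Rgma), a BMP co-receptor, was near 0 in MOSE-NEO with 7 counts in all and had 4.59, 5.97 and 6.90 CPM in MOSE-PAX8 (count ratio 69.8, exact 95% counting interval 33.6 to 174, adjusted p = 1.2e-05). It stood far above the MOSE-NEO range in every MOSE-PAX8 library.

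Thrombospondin 1 (Thbs1), which can activate latent TGF-beta, rose 2.25-fold to 474 ± 17.6 CPM, against 210.4 ± 15.4 CPM in MOSE-NEO (adjusted p = 2.71e-05). Fstl1, a secreted follistatin-like glycoprotein, rose 3.42-fold to 465 ± 58.7 CPM, against 136 ± 24.8 CPM (adjusted p = 5.58e-05). Furin, the protease that cleaves TGF-beta precursors, rose 1.41-fold (adjusted p = 0.000817). The median of its neighbours was 0.24 on the log2 scale, and with it removed the log2 fold change of Furin was 0.26 instead of 0.50 (adjusted p = 0.0247). The distant family member Gdf15 rose 10.9-fold (adjusted p = 0.000122) and averaged 9.90 CPM in MOSE-PAX8 and 0.876 CPM in MOSE-NEO. Ctgf, a TGF-beta target, did not change detectably, with 1908 ± 358 CPM in MOSE-PAX8 and 1840.0 ± 549 CPM in MOSE-NEO (SD, n = 3 each, adjusted p = 0.881). It does not stand for the other target genes listed. Ldlrad4 was called higher (log2 fold change 0.26, adjusted p = 0.0290) and Tsc22d1 lower (-0.45, 0.0156), while Atoh8 was not called (0.34, 0.153). With the local median removed, Ldlrad4 and Tsc22d1 lost their calls (adjusted p = 0.0660 and 0.851).

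The lower genes included a BMP ligand and a BMP receptor. Bmp4, the most abundant BMP ligand gene examined, had 93.8, 81.7 and 89.2 CPM in MOSE-PAX8 against 147, 149.7 and 163 CPM in MOSE-NEO (1.74-fold lower, adjusted p = 0.000171). Its receptor gene Bmpr1a had 291, 245 and 254 CPM in MOSE-PAX8 against 398, 399 and 404 CPM in MOSE-NEO (1.52-fold lower, adjusted p = 0.00100). Bmp1, a protease that cleaves the BMP antagonist chordin, was 1.58-fold lower (adjusted p = 0.00176). These 3 genes lie on chromosome 14, where the medians of their neighbours were -0.41, -0.44 and -0.47 on the log2 scale. With the local median removed Bmp4 kept its call (log2 fold change -0.38, adjusted p = 0.00876), whereas Bmpr1a (log2 fold change -0.16, adjusted p = 0.210) and Bmp1 (-0.19, 0.220) lost theirs.

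The remaining lower genes named by the rule were low or regional. Acvr1c, a nodal and activin type I receptor, had 0.349 ± 0.176 CPM in MOSE-PAX8 and 2.42 ± 0.399 CPM in MOSE-NEO (adjusted p = 0.000598), and Gdf6, a BMP-type ligand, 0.143 ± 0.0999 and 0.881 ± 0.216 CPM (adjusted p = 0.00382; SD, n = 3 each). The log2 fold change of Gdf6 was -2.61, and -3.26 without MOSE-PAX8 replicate 2. Trim33, a nuclear SMAD regulator, was 1.45-fold lower (adjusted p = 0.00231), but its neighbours on chromosome 3 were lower too (median -0.46 on the log2 scale), and its call ended with that median removed (0.601). Per kilobase, the summed level of Bmp2, Bmp4, Bmp6 and Bmp7 was 48.1 ± 3.00 CPM per kilobase in MOSE-PAX8 and 76.8 ± 3.29 in MOSE-NEO (SD, n = 3 each), with Bmp4 81.6% and 88.7% of it.

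**Figure D5:**
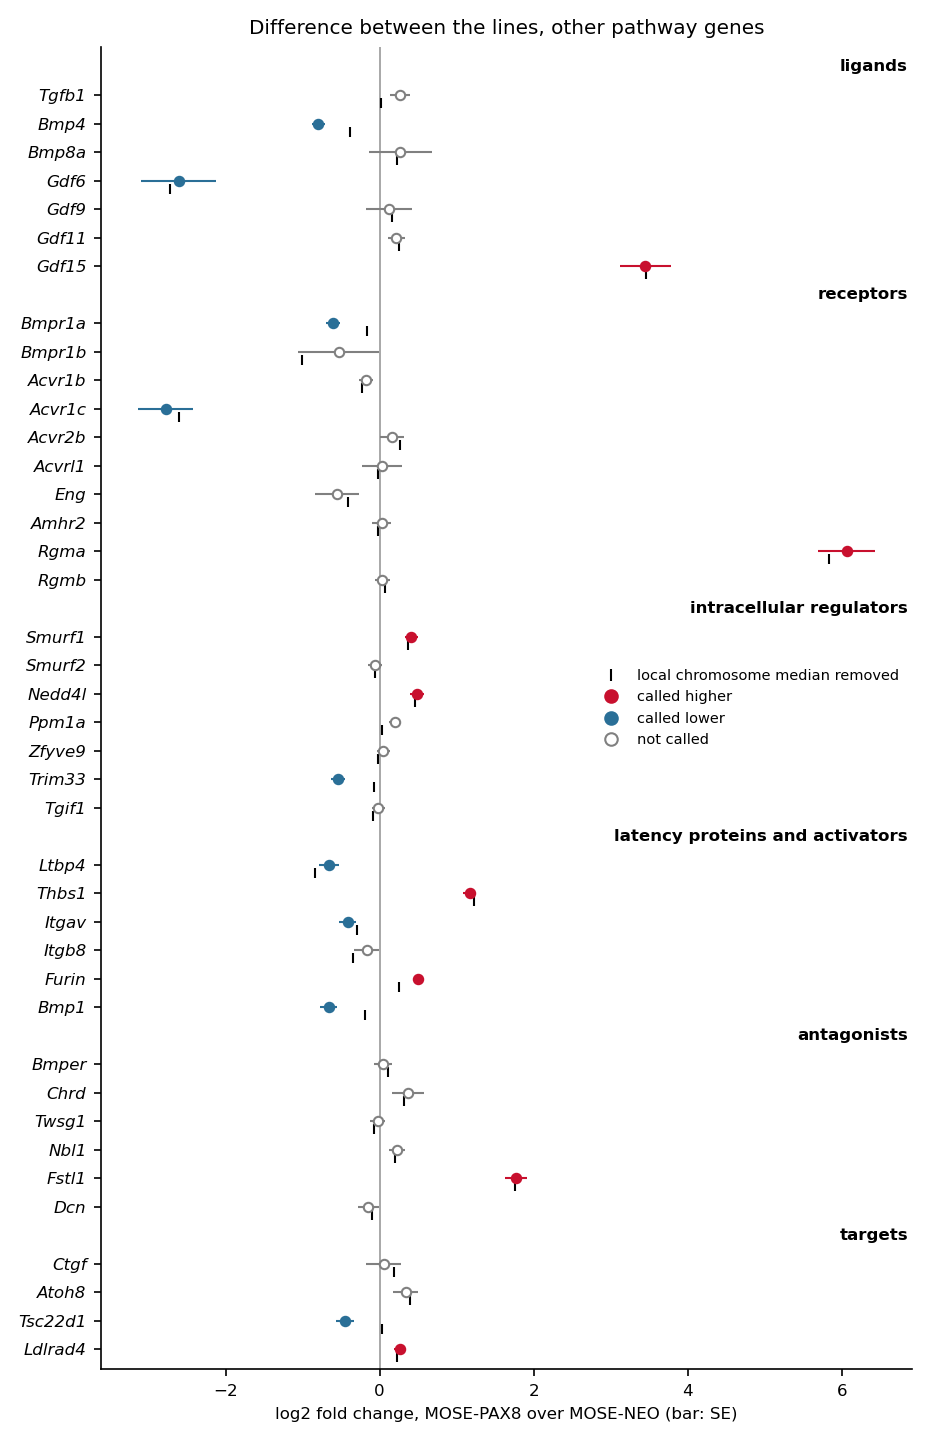
Log2 fold change of MOSE-PAX8 over MOSE-NEO with its SE for other pathway genes that were tested, by role, with a tick for the value after the local chromosome median was removed. Rgma and Gdf15 lie farthest to the right, and for Bmp4, Bmpr1a, Bmp1, Trim33 and Tsc22d1 the tick lies nearer to 0 than the point.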

How the data were processed

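RNA was sequenced from 3 MOSE-PAX8 and 3 MOSE-NEO libraries, grouped and numbered by their titles. The authors deposited unnormalised read counts for 25006 Ensembl identifiers, in a separate table for each library. The submitters' processing notes name cutadapt 1.13, STAR, HTSeq 0.6.1p1 and DESeq2, and the mm10 build. Annotation, strand setting and the handling of multi-mapping reads: not given in the sources used here. Hence genes with exons overlapped by another gene are uncertain. Symbols, coordinates and exon lengths came from GENCODE M21 (24991 identifiers matched), and upstream sequences from RefSeq on GRCm38.p6.

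edgeR 4.0.16 (R 4.3.3) compared the lines by its quasi-likelihood test over all genes kept by filterByExpr, with TMM factors and Benjamini-Hochberg adjustment. A positive log2 fold change means higher in MOSE-PAX8, and their SE was worked back from the test statistic. Every adjusted p is over all tested genes. The labels do not say whether the 3 libraries per line are independent cultures. If they are not, the p-values reflect technical spread alone. The fit was also run on simulated counts with 200 changed genes, which cannot show whether the deposited libraries are independent. Genes that did not pass the filter are described by counts, and count ratios between the lines carry exact 95% intervals.

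The members, the list of other pathway genes and the alternatives were chosen with earlier results of these data known. All members are named. Of the other pathway genes, up to 6 called per direction with the smallest adjusted p are named, and further ones were chosen after their values were seen. One gene that this rule names is counted but not reported here. Alternatives were DESeq2 1.42.0, limma-voom (limma 3.58.1), RLE and upper-quartile factors, no filter, a filter of 1 CPM in 3 libraries, a replicate block, each library left out, both lincRNA-rich libraries left out, and removal of the local chromosome median as an offset.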

Additional observations from a re-analysis of the deposited data

How the results depend on the processing

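Of 16 called members, 8 kept the call in every alternative that tested them (Tgfb2, Inha, Inhba, Tgfbr3, Acvr1, Id4, Ltbp1 and Fst), 8 lost it in at least 1, and none changed sign. The count of members higher was 6 to 9 with 1 library left out and that of members lower 3 to 7. With the local chromosome median removed, 5 members and 4 other pathway genes were lower. Genes called in all ranged from 2859 (without MOSE-PAX8 replicate 3) to 4272 (no filter). The cause of these shifts was not tested. Lower-abundance members (Bmp2, Bmp7, Id2, Bambi, Grem1, Fstl3, Nog) are limited by depth.

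MOSE-NEO replicate 1 and MOSE-PAX8 replicate 2 held 0.317% and 0.330% of counts in lincRNA genes, the highest share of each line. Without both, 3559 genes were called, with 8 members higher and 7 lower. Deviations from the mean of each line had correlations of -0.49, 0.06 and 0.48 between same-numbered libraries. MOSE-PAX8 replicate 2 had correlations of 0.67 with MOSE-NEO replicate 1 and -0.71 with MOSE-NEO replicate 3. With so few libraries these values cannot decide whether any of them share a batch, and the labels name none. With the replicate block 3933 genes were called, 9 members higher and 7 lower.

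Uncalled members near 0 changed sign. With 1 library left out, the log2 fold change of Bmp6 ranged between -0.0577 and 0.205, of Ski between -0.0348 and 0.0258 and of Skil between -0.0650 and 0.00202. Without both lincRNA-rich libraries it was -0.00187 for Bmp6, -0.0616 for Ski and 0.000759 for Skil. With the local median removed it was -0.00301 for Bmp6 and 0.0170 for Acvr2a. Ski was -0.00926 with DESeq2, -0.00739 with RLE factors and -0.000606 with no filter.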

Other observations

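A pair of further TGF-beta genes, chosen after their values were seen, had counts only in MOSE-PAX8. Tgfbi, a matrix protein named for its induction by TGF-beta, had 5, 9 and 6 counts in the MOSE-PAX8 libraries and 0 in each MOSE-NEO library. The MOSE-PAX8 level was 5.59-fold the level that 3 counts over the MOSE-NEO group would give. Lrrc32, which holds latent TGF-beta at the cell surface, had 9, 6 and 9 counts in MOSE-PAX8 and 0 in MOSE-NEO, 6.71-fold on the same basis. These folds leave out counting error in the MOSE-PAX8 counts and are not lower limits. Neither passed the filter on low counts, so neither was tested.

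The receptor of anti-Mullerian hormone, Amhr2, had 159.7 ± 28.7 CPM in MOSE-PAX8 and 157 ± 8.51 CPM in MOSE-NEO (SD, n = 3 each, edgeR adjusted p = 0.894). Its ligand gene Amh had 4, 15 and 2 counts in MOSE-PAX8 and 5, 4 and 4 in MOSE-NEO.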
